A study of Mus musculus with 8 samples.

Results

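The genes described here belong by symbol to the receptor families for the transmitters acetylcholine, GABA, glycine, glutamate and serotonin and for extracellular nucleotides. They were chosen by symbol, and 99 of the 55414 genes in the count table were kept: 16 nicotinic and 5 muscarinic acetylcholine receptor genes, 19 GABA-A, 5 glycine, 16 ionotropic and 8 metabotropic glutamate, 14 serotonin, 7 P2X and 9 P2Y receptor genes. A further 7 symbols matched the letters of the pattern and were not kept, namely 4 HtrA serine proteases (Htra1 to Htra4), Grina and the antisense genes Grin1os and Chrna1os. All 99 are protein coding in GENCODE M21.

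The counts came from 8 libraries of enteric neurons, which form the gut's own nervous system, from the colon of mice at 4 weeks of age. WT mice gave 4 libraries and Emb knockdown mice gave 4, with no other allele or agent named in the labels; the sources used here do not give how the knockdown was made or in which cells. Cells of both genotypes were dissociated, stained for CD24 and CD56 and sorted in tubes of about 250 cells, and RNA was amplified with a Smart-seq kit. The study's title asks how lowering Emb, which encodes the membrane glycoprotein embigin, affects the development of enteric neurons.

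WT libraries had 698930 to 954191 total counts, Emb knockdown libraries had 2024372 to 2712754, and the ribosomal RNA gene Rn18s-rs5 took 3.55% to 13.0% of them in WT and 29.2% to 42.5% in Emb knockdown. Emb had 4, 6, 22 and 16 counts across WT libraries 1 to 4, against 5, 25, 3 and 5 across Emb knockdown libraries 1 to 4 (log2 fold change -1.24 ± 0.82, SE; edgeR adjusted p = 0.529), so a decrease of the targeted gene was not detected, and genotypes below are those of the labels. Listed markers of enteric neurons lay close to background: the median of 21 genes was 0.665 to 1.86 times background per WT library and 1.88 to 2.2 times per Emb knockdown library. Elavl3 and Syt1 were the members above 5 times background in all 8 libraries. The median of 11 glia markers was 1.66 to 4.87 times background per WT library and 5.17 to 10.6 times per Emb knockdown library. Background here means the counts per exonic kilobase of 1505 olfactory-type receptor genes (olfactory, vomeronasal and trace amine families) in the same library.

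Transmitter receptors fall into a fast and a slow kind. Nicotinic, GABA-A, glycine, ionotropic glutamate, P2X and type 3 serotonin receptors are ion channels built from several subunits, each with its own gene. Muscarinic, metabotropic glutamate, P2Y and the other serotonin receptors act through G proteins. In the gut wall, fast transmission between enteric neurons runs mainly through nicotinic channels, with P2X and type 3 serotonin channels beside them, and slow responses run through the G protein-coupled kinds.

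The starts of 3 genes are printed to show the sequence context of members that the results turn on: P2rx4 had the highest lowest-library level over background of all 99, P2ry10 was higher in every Emb knockdown library than in every WT library, and Gabrb1 was lower in every one. Each window spans 250 bases before to 50 after an annotated start on the plus strand, from RefSeq on GRCm38.p6, and capitals mark CG dinucleotides. The windows are chr5:122707294-122707593 for P2rx4, chrX:107088242-107088541 for P2ry10 and chr5:71657671-71657970 for Gabrb1.
P2rx4: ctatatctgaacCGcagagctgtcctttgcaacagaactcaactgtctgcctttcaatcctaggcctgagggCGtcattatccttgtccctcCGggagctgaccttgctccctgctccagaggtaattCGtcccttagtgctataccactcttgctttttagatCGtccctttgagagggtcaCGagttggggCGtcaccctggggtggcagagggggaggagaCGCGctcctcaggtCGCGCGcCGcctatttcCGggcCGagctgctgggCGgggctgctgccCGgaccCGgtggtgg
P2ry10: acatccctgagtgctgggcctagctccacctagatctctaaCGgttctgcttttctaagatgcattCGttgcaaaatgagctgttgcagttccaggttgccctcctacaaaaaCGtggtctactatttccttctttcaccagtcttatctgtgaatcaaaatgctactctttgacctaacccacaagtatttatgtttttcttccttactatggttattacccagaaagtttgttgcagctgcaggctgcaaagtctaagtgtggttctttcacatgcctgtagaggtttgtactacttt
Gabrb1: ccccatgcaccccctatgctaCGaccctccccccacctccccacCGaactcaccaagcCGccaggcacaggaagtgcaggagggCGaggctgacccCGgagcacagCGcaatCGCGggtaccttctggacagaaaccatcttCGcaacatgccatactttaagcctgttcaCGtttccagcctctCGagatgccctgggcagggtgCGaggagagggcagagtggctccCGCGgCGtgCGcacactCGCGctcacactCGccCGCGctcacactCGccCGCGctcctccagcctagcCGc
The windows hold 18, 3 and 25 CG dinucleotides, against a median of 7 over 32851 windows of the same length. At least as many were found in 29.7%, 76.7% and 18.4% of all windows. P2ry10 and Gabrb1 each have a further start, with 5 and 9 CG dinucleotides. Of the 99 genes, 73 had an entry.

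Most receptor genes were counted at about the level of the background. The median member lay at 0.92 times background (WT) and 1.26 times (Emb knockdown), beside 0.93 and 1.57 times for all protein-coding genes. Per exonic kilobase, 10 of 99 (10.1%) lay above background in all 8 libraries, against 12.1% of 21927 protein-coding genes, and 5 of 99 (5.05%) lay above 2 times background in all 8, against 5.19%. These 5 were the ATP-gated channel P2rx4, the UDP receptor P2ry6, the GABA-A subunit Gabrb1, the muscarinic receptor Chrm5 and the kainate subunit Grik3. P2rx4 alone of the 99 lay above 5 times background in every library (1.01%, against 1.73% of protein-coding genes). The nicotinic subunit Chrnb1, the glutamate receptor subunits Gria3, Grik4 and Grin2c and the metabotropic receptor Grm4 made up the 10. By class, the median member lay at 3.42 times background (WT) and 2.56 times (Emb knockdown) for P2X genes, and at 1.52 and 1.14 times for nicotinic genes. Ionotropic glutamate genes stood at 1.34 and 1.75 times, GABA-A genes at 0.79 and 0.844, and glycine receptor genes at 0.429 and 0.554.

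**Figure D1:**
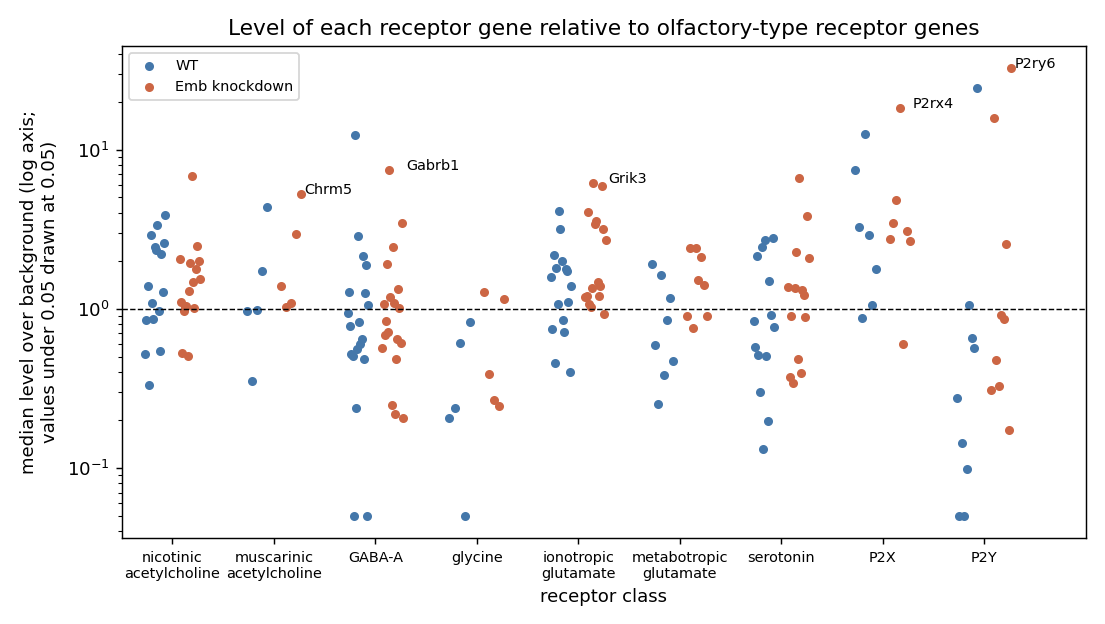
Median level of each of the 99 receptor genes over the 4 libraries of a genotype, as counts per exonic kilobase relative to olfactory-type receptor genes (log axis), by class; each point is a gene, the dashed line marks background, and levels under 0.05 are drawn at 0.05. Most points lie within a few-fold of the line, and P2rx4, P2ry6 and Gabrb1 stand above it in both genotypes.

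The order of these leading genes by level differed between libraries. P2rx4 lay at 12.8, 12.1, 7.29 and 28.6 times background across WT libraries 1 to 4 and at 40.1, 20.9, 15.5 and 13.1 times across Emb knockdown libraries 1 to 4. P2ry6 lay at 30.4, 18.4, 3.96 and 34.7 times in WT and 73.4, 17.6, 38.4 and 26.3 times in Emb knockdown, so P2ry6 exceeded P2rx4 in 6 of 8 libraries and lay under it in WT replicate 3 and Emb knockdown replicate 2. Gabrb1 lay at 10.6 to 17.1 times among WT libraries and 4.79 to 10.3 times among Emb knockdown libraries, groups that did not overlap. In CPM (the TMM-normalised read count relative to library size, not corrected for gene length), the mean over the 8 libraries went up with exonic length across the 99 members (Spearman rho 0.451, a description over genes that share libraries), and less with the span of the gene (rho 0.179).

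All 99 genes had at least 1 count in some WT and in some Emb knockdown library. In single libraries 82 to 95 of them did so in WT and 88 to 97 in Emb knockdown. After thinning to 698930 total counts the numbers were 82 to 95 and 71 to 89, so the groups overlapped. Thinning kept Rn18s-rs5, which took a larger share in Emb knockdown, so counts outside that gene were not equalised. Before thinning, 8 genes had 10 or more counts in all 8 libraries. The filter on low counts kept 48 of the 99: 15 of 16 ionotropic glutamate genes and 6 of 7 P2X genes, but 6 of 16 nicotinic, 5 of 19 GABA-A, 4 of 14 serotonin, 4 of 9 P2Y, 3 of 5 muscarinic, 5 of 8 metabotropic glutamate and 0 of 5 glycine receptor genes. Of the 48, 24 passed the filter's minimum in more WT than Emb knockdown libraries and 8 in more Emb knockdown libraries. Members that pass through one genotype tend to be higher there, so counts of direction below are descriptions of the 48. The 51 genes not tested had mean levels from 0.388 CPM upwards.

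By edgeR's quasi-likelihood test, 0 of the 48 passed an adjusted p of 0.05, as did 0 of all 11353 genes tested (0%), and the lowest adjusted p of a receptor gene was 0.295. At an unadjusted p under 0.05 stood 9 of 48 (18.8%), against 13.3% of all genes tested. Of these, 7 were lower in Emb knockdown (14.6%, against 4.64% of all genes) and 2 were higher (against 8.64%). The groups did not overlap in 4 of 48 genes (8.33%, against 8.28% of all genes), with P2ry10 higher (against 4.03%) and Chrna4, Gabrb1 and Gabrg3 lower (3 of 48, against 4.25%). The DESeq2 Wald test called 5 of the 31 members to which it gave an adjusted p (among them Chrna4, Gabrb1, Gabrg3 and P2ry10; 8.21% of all genes with an adjusted p), and edgeR with no filter called 3 of 99 (among them Grm5 and P2ry10; 1.54% of all genes). The median log2 fold change was -0.10 over the 48, with 20 higher (against 51.6% of all genes) and 28 lower, and 0.04 over all genes tested. With library totals alone 9 genes were lower and 2 higher at an unadjusted p under 0.05 (against 13.5% and 3.69% of all genes), and scaled to the olfactory-type receptor genes 3 were lower and 4 higher (against 1.24% and 18.1%). The genes whose groups did not overlap became 5 lower and 0 higher with library totals alone (against 9.55% and 1.47% of all genes). With that scaling they were 2 lower and 2 higher (against 1.2% and 9.78%); both alternatives were chosen after seeing the data. Without Emb knockdown replicate 1 or 2, 3 of 44 fitted members were lower at an unadjusted p under 0.05 (6.82%, against 4.36% and 4.29% of all genes). Without WT replicate 1 they were 4 of 75 (5.33%, against 3.78%), with P2rx5 among them, which was not among the 7, and without WT replicate 4 they were 4 of 71 (5.63%, against 3.41%). Each left-out Emb knockdown library left 1 higher gene in place of 2.

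**Figure D2:**
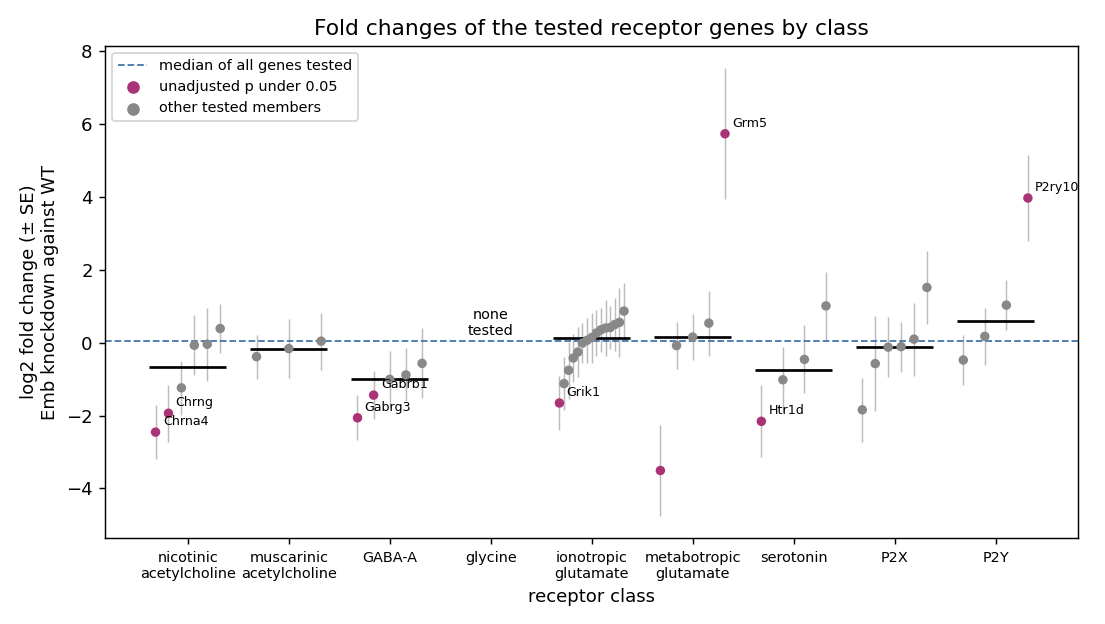
Log2 fold change (± SE) of the 48 tested receptor genes, Emb knockdown against WT, by class; purple points have an unadjusted p under 0.05, black bars are class medians and the dashed line is the median of all genes tested. All 5 GABA-A points lie below the line, while the 15 ionotropic glutamate points lie on both sides of it.

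**Figure D3:**
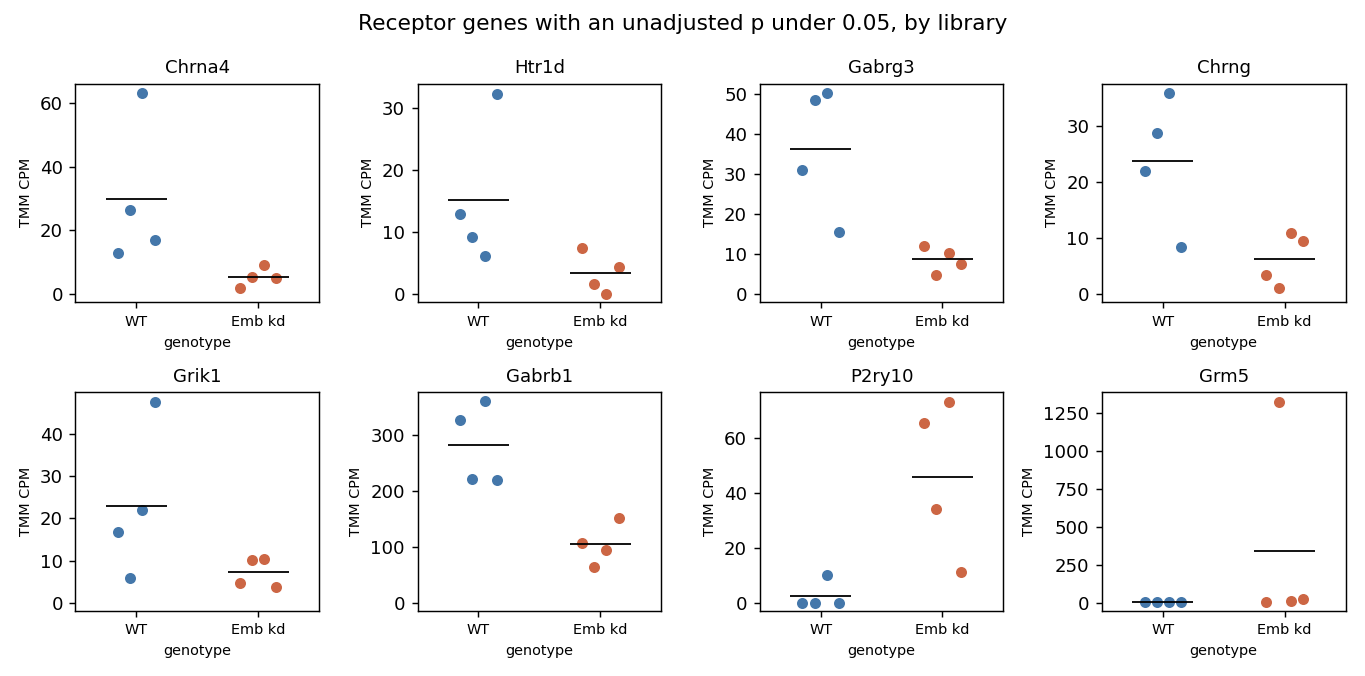
TMM-normalised CPM in each library (points) and group mean (bars) of 8 of the 9 receptor genes with an unadjusted p under 0.05, each on its own linear axis. WT and Emb knockdown do not overlap in Chrna4, Gabrg3, Gabrb1 and P2ry10, and the Emb knockdown mean of Grm5 rests on 1 library.

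GABA-A receptors are chloride channels made of alpha, beta and gamma or other subunits. Of the tested members of this class 5 of 5 had negative estimates, and 0 passed the adjusted p. Their median log2 fold change was -1.01, against -1.49 with library totals alone and -0.50 scaled to the olfactory-type receptor genes. Gabra2, Gabrd, Gabrg3 and Gabrq passed the filter's minimum in more WT than Emb knockdown libraries, so the filter favoured negative estimates for them. Gabrb1 passed it in 4 libraries of each genotype. Among members not tested, group means differed in both directions. Gabrb1, the beta1 subunit (ENSMUSG00000029212, on the plus strand of chromosome 5, bases 71658113 to 72149037 of GRCm38), had 328, 222, 362 and 221 CPM across WT libraries 1 to 4. Gabrb1 in Emb knockdown libraries 1 to 4 stood at 107, 63.6, 95.1 and 151 CPM. The lowest WT library lay above the highest Emb knockdown library, with group means of 283 ± 72.8 CPM (WT) and 104 ± 36.2 CPM (Emb knockdown) (mean ± SD of 4 libraries), a log2 fold change -1.44 ± 0.65 (SE) with an edgeR adjusted p of 0.372. When scaled to the olfactory-type receptor genes the log2 fold change of Gabrb1 was -0.81. The span of Gabrb1 overlaps that of Gabra4 on the other strand, and the sources used here do not give the strand setting of the counting.

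Gabrg3, the gamma3 subunit (ENSMUSG00000055026, on the minus strand of chromosome 7, bases 56716465 to 57387188 of GRCm38), had 30.9, 48.3, 50.2 and 15.5 CPM across WT libraries 1 to 4. Gabrg3 in Emb knockdown libraries 1 to 4 stood at 12, 4.77, 10.3 and 7.52 CPM. Every Emb knockdown library lay below every WT library (log2 fold change -2.06 ± 0.62; adjusted p by edgeR 0.295), although per kilobase Gabrg3 was near background, at 0.862 to 2.75 times background among WT libraries and 0.417 to 1.19 times among Emb knockdown libraries. The other tested members were Gabra2 (-0.89 ± 0.72), Gabrd (-0.57 ± 0.96) and Gabrq (-1.01 ± 0.77), with groups that overlapped. Of the 14 members not tested, with mean levels of 0.967 to 6.81 CPM, Gabra3, an alpha subunit, had 2.57 to 8.37 CPM in WT and 1.06 to 10.3 CPM in Emb knockdown. Summed over all 19 genes, the class held 349.9 to 578 CPM in WT and 135 to 261 CPM in Emb knockdown, and Gabrb1 supplied 61% of it. The sums did not overlap on this scale or with library totals alone. Relative to the olfactory-type receptor genes they overlapped. Emb knockdown replicate 4, with 417 class counts beside 9320 olfactory-type counts, lay above WT replicate 4, with 249 beside 5907. Without Gabrb1 the sums were 106 to 216 CPM in WT and 65.3 to 123 CPM in Emb knockdown, and the groups overlapped.

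Glycine receptors are the other inhibitory chloride channels. Their 5 genes together held 7.72 to 27.6 CPM in WT and 11.9 to 23.2 CPM in Emb knockdown, and none had enough counts to be tested. Glra3 had 1.29 to 16 CPM in WT and 0.627 to 14.3 CPM in Emb knockdown, and Glrb, the beta subunit that anchors the channel at synapses, 2.28 to 12.6 CPM in WT and 1.06 to 14.4 CPM in Emb knockdown. Per kilobase Glrb lay at 0.321 to 1.81 times background among WT libraries and 0.237 to 2.93 times among Emb knockdown libraries, so a signal above background was not shown.

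Nicotinic receptors are the cation channels of fast cholinergic transmission. Of the 6 tested genes 5 had negative estimates (median -0.66), 2 of them with an unadjusted p under 0.05 (4.64% of all genes tested were lower at that p). Without Emb knockdown replicate 3 the filter kept 39 receptor genes, against 48. The median of the nicotinic genes fitted there was -1.88. Chrna4, the alpha4 subunit (ENSMUSG00000027577, on the minus strand of chromosome 2, bases 181018380 to 181043546 of GRCm38), had 12.9, 26.4, 63.1 and 16.9 CPM across WT libraries 1 to 4. Chrna4 in Emb knockdown libraries 1 to 4 stood at 2.0, 5.3, 9.19 and 5.01 CPM. All 4 Emb knockdown libraries lay below the lowest WT library, and WT replicate 3 was the highest (log2 fold change -2.46 ± 0.73; adjusted p by edgeR 0.295). Without WT replicate 3 the estimate of Chrna4 was -1.73. Chrna4 passed the filter's minimum in 4 WT libraries and 1 Emb knockdown library. The level of Chrna4 was 1.51 to 8.22 times background among WT libraries and 0.472 to 1.48 times among Emb knockdown libraries. Chrng, the gamma subunit of the fetal muscle receptor, had 21.9, 28.7, 35.8 and 8.43 CPM across WT libraries 1 to 4. Chrng in Emb knockdown libraries 1 to 4 stood at 3.33, 1.06, 10.8 and 9.4 CPM. WT replicate 4 lay within the Emb knockdown range (log2 fold change -1.94 ± 0.79; adjusted p by edgeR 0.331).

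The subunits best known from enteric ganglia were sparse. Chrna3, the alpha3 subunit, had 2, 44, 4 and 0 counts across WT libraries 1 to 4. Chrna3 in Emb knockdown libraries 1 to 4 had 10, 12, 8 and 6 counts, and WT replicate 2 held 65.4% of its summed CPM. Chrnb4, its usual beta partner, had 0 to 25.3 CPM in WT and 1.59 to 8.14 CPM in Emb knockdown, and the accessory subunit Chrna5 had 0 to 8.05 CPM in WT and 2.0 to 8.48 CPM in Emb knockdown. None of these 3 passed the filter on low counts. Chrna7, which forms channels of 1 kind of subunit, had 8.05 to 25.9 CPM in WT and 2.0 to 15.1 CPM in Emb knockdown (log2 fold change -1.24 ± 0.74, and -1.88 without Emb knockdown replicate 3; adjusted p by edgeR 0.485). Chrnb1, a subunit of the muscle receptor, was the nicotinic gene above background in all 8 libraries, at 12.6 to 16.7 CPM in WT and 4.0 to 28.8 CPM in Emb knockdown and 2.99 to 4.32 times background among WT libraries and 1.87 to 10.8 times among Emb knockdown libraries (log2 fold change 0.39 ± 0.67; adjusted p = 0.849). The summed class held 108 to 272 CPM in WT and 72.6 to 129.7 CPM in Emb knockdown, and the groups overlapped.

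Ionotropic glutamate receptors comprise AMPA (Gria), kainate (Grik) and NMDA (Grin) subunits. This class had the most tested genes, 15, with 9 positive and 6 negative estimates and a median of 0.14; it moved to -0.47 under library totals alone and to 0.79 under scaling to the olfactory-type receptor genes. Its summed CPM overlapped between genotypes, 348 to 424 CPM in WT and 322 to 424 CPM in Emb knockdown. With library totals alone every Emb knockdown sum lay under every WT sum, on a scale where the median of all genes tested was -0.59. Grik1, a kainate subunit, had 16.7, 5.75, 22.1 and 47.8 CPM across WT libraries 1 to 4. Grik1 in Emb knockdown libraries 1 to 4 stood at 4.66, 10.1, 10.3 and 3.76 CPM (log2 fold change -1.66 ± 0.74; adjusted p by edgeR 0.365). Its estimate was -0.97 without WT replicate 4, the highest library. Grik3, also a kainate subunit and the member with the highest mean of the class, had 82.3, 52.9, 57.1 and 47.8 CPM across WT libraries 1 to 4. Grik3 in Emb knockdown libraries 1 to 4 stood at 113, 60.4, 27.6 and 50.1 CPM (log2 fold change 0.06 ± 0.61; adjusted p = 0.980). Grin2b, an NMDA subunit that binds glutamate, had 27 to 136 CPM in WT and 10 to 53 CPM in Emb knockdown (log2 fold change -1.12 ± 0.72; adjusted p = 0.517), with an estimate of -0.59 without WT replicate 2. Grin1, the subunit that every NMDA channel needs, lay at 0.484 to 1.56 times background among WT libraries and 0.684 to 2.85 times among Emb knockdown libraries (log2 fold change 0.14 ± 0.69), and Gria2, which makes AMPA channels impermeable to calcium, at 0.604 to 0.924 times background among WT libraries and 0.865 to 1.24 times among Emb knockdown libraries (log2 fold change -0.01 ± 0.55).

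In the metabotropic glutamate class, 1 library set the estimate of Grm5. Grm5, a Gq-coupled receptor, had 5, 5, 8 and 5 counts across WT libraries 1 to 4. Grm5 in Emb knockdown libraries 1 to 4 had 4, 2488, 17 and 40 counts. Emb knockdown replicate 2 held 95.5% of the summed CPM, and the other Emb knockdown libraries, at 2.66, 9.19 and 25.1 CPM, lay on both sides of the WT range of 5.75 to 7.03 CPM. The fitted log2 fold change 5.73 ± 1.80 (edgeR adjusted p = 0.295) rests on that library, and Grm5 did not pass the filter when it, or any other Emb knockdown library, was left out. Grm4, Grm6 and Grm7 had log2 fold changes of 0.15, 0.53 and -0.08. Over all 99 genes, 8 had over 50% of their summed CPM in 1 library, and among tested genes the share was 2 of 48 (4.17%, against 10.9% of all genes tested).

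**Figure D4:**
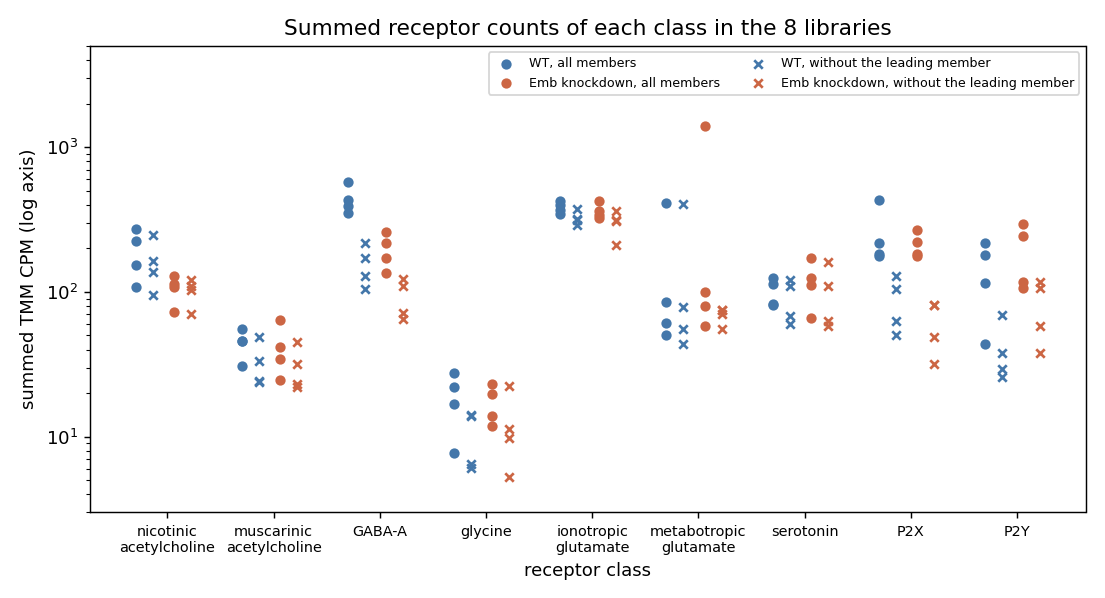
Summed TMM-normalised CPM of each receptor class in each library (log axis), for all members (circles) and without the member with the highest mean (crosses). The GABA-A circles of the genotypes do not overlap and the crosses do, and Emb knockdown replicate 2 stands out in the metabotropic glutamate class through Grm5.

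Serotonin in the gut wall acts on type 3 channels and on several G protein-coupled receptors. The 14 genes summed to 80.6 to 125 CPM in WT and 65.7 to 173 CPM in Emb knockdown. Htr1d, a Gi-coupled receptor, had 12.9, 9.2, 6.09 and 32.3 CPM across WT libraries 1 to 4. Htr1d in Emb knockdown libraries 1 to 4 stood at 7.33, 1.59, 0 and 4.39 CPM (log2 fold change -2.16 ± 0.99; adjusted p by edgeR 0.376). Emb knockdown replicate 1 lay above WT replicate 3, and the estimate was -1.40 without WT replicate 4. Htr1d passed the filter's minimum in 4 WT and 0 Emb knockdown libraries, so it was tested through WT. Htr3a, the subunit required for type 3 channels, had 21.9, 2.3, 12.9 and 4.22 CPM across WT libraries 1 to 4. Htr3a in Emb knockdown libraries 1 to 4 stood at 10.7, 3.18, 54 and 15.7 CPM. The groups overlapped (log2 fold change 1.01 ± 0.93; adjusted p = 0.667), and without Emb knockdown replicate 3 the estimate of Htr3a was -0.06, and without WT replicate 1 it was 1.69. Its partner Htr3b had 0 to 10.7 CPM in WT and 0 to 4.0 CPM in Emb knockdown, and Htr4, the Gs-coupled receptor that promotes release of acetylcholine in the gut, 1.29 to 9.2 CPM in WT and 2.66 to 13.3 CPM in Emb knockdown. Neither was tested. Htr5b had 0, 2, 4 and 5 counts across WT libraries 1 to 4. Htr5b in Emb knockdown libraries 1 to 4 had 154, 3, 4 and 2 counts, so Emb knockdown replicate 1 supplied 85.5% of its summed CPM. The median of the 4 tested serotonin receptor genes was -0.74. With single libraries left out the filter was run again, so the serotonin receptor genes fitted were not always these 4. The medians then ran from -0.85 to 0.81, above 0 without WT replicate 1 or 4 or Emb knockdown replicate 1, 2 or 4.

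Muscarinic receptors carry slow cholinergic signals. The 5 genes summed to 30.9 to 55.3 CPM in WT and 24.6 to 63.9 CPM in Emb knockdown, and the groups overlapped. Chrm5, a Gq-coupled receptor, was the muscarinic gene above 2 times background in all 8 libraries, at 4.26 to 4.68 times background among WT libraries and 2.74 to 8.41 times among Emb knockdown libraries. It had 11.6, 10.3, 10.7 and 11.2 CPM across WT libraries 1 to 4. Chrm5 in Emb knockdown libraries 1 to 4 stood at 11.3, 11.7, 5.4 and 5.01 CPM (log2 fold change -0.39 ± 0.60; adjusted p by edgeR 0.825). Chrm1 had 6.43 to 21.8 CPM in WT and 2.65 to 18.8 CPM in Emb knockdown (log2 fold change -0.17 ± 0.81) and Chrm3, the receptor of gut smooth muscle contraction, 4.22 to 13.7 CPM in WT and 2.0 to 21.3 CPM in Emb knockdown (log2 fold change 0.04 ± 0.79). Chrm2, the Gi-coupled muscle and presynaptic receptor, had 20, 0, 1 and 4 counts across WT libraries 1 to 4. Chrm2 in Emb knockdown libraries 1 to 4 had 9, 6, 12 and 21 counts, and Chrm2 was not tested.

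P2X channels and most P2Y receptors bind extracellular nucleotides. P2rx4, an ATP-gated channel of neurons and macrophages (ENSMUSG00000029470, on the plus strand of chromosome 5, bases 122707544 to 122729738 of GRCm38), had 153, 125, 78.4 and 302 CPM across WT libraries 1 to 4. P2rx4 in Emb knockdown libraries 1 to 4 stood at 237, 141, 134 and 97.1 CPM. The groups overlapped, with means of 165 ± 96.7 CPM (WT) and 152 ± 59.8 CPM (Emb knockdown) (log2 fold change -0.11 ± 0.69; adjusted p by edgeR 0.966). P2rx4 supplied 68.2% of the summed P2X CPM (176 to 431 CPM in WT and 178 to 269 CPM in Emb knockdown). With library totals alone the P2X sums did not overlap, at 181 to 439 CPM in WT and 129.7 to 167 CPM in Emb knockdown. On that scale the median of all genes tested was -0.59, and 9.55% of them were lower without overlap. P2rx2 and P2rx3, the channels known from enteric and sensory neurons, were uneven. P2rx2 had 0, 0, 34 and 20 counts across WT libraries 1 to 4. P2rx2 in Emb knockdown libraries 1 to 4 had 0, 21, 14 and 28 counts (log2 fold change -0.58 ± 1.30). P2rx3 had 11, 0, 8 and 1 counts across WT libraries 1 to 4. P2rx3 in Emb knockdown libraries 1 to 4 had 27, 61, 13 and 8 counts (log2 fold change 1.51 ± 1.00, and 2.57 without WT replicate 1; adjusted p = 0.533). P2rx1, the channel of smooth muscle and platelets, had 1.52 to 41.4 CPM in WT and 2.7 to 13.2 CPM in Emb knockdown (log2 fold change -1.84 ± 0.88; adjusted p = 0.389).

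Among P2Y receptors, P2ry6, the UDP receptor of macrophages and other cells (ENSMUSG00000048779, on the minus strand of chromosome 7, bases 100937630 to 100974649 of GRCm38), had 149, 78.2, 17.5 and 150.4 CPM across WT libraries 1 to 4. P2ry6 in Emb knockdown libraries 1 to 4 stood at 179, 48.8, 137 and 80.2 CPM (log2 fold change 0.17 ± 0.77; adjusted p by edgeR 0.956), with overlap. P2ry10, a receptor of leukocytes for lysophospholipids (ENSMUSG00000050921, on the plus strand of chromosome X, bases 107088492 to 107104974 of GRCm38), had 0, 0, 13 and 0 counts across WT libraries 1 to 4. P2ry10 in Emb knockdown libraries 1 to 4 had 98, 64, 135 and 18 counts. Its 13 WT counts all came from WT replicate 3, and the lowest Emb knockdown library, 11.3 CPM, stood above that library's 9.89 CPM (log2 fold change 3.96 ± 1.19; adjusted p by edgeR 0.295). P2ry10 passed the filter through Emb knockdown. Over all 4 libraries of a genotype the means were 2.47 ± 4.94 CPM (WT) and 45.9 ± 28.6 CPM (Emb knockdown) (mean ± SD). Without WT replicate 3 the other WT libraries held 0 counts, so the size of the difference is not measured there. With library totals alone the groups of P2ry10 overlapped and the log2 fold change was 3.20. P2ry1, the receptor of inhibitory purinergic transmission to gut muscle, had 0, 8, 1 and 2 counts across WT libraries 1 to 4. P2ry1 in Emb knockdown libraries 1 to 4 had 12, 0, 2 and 3 counts, and P2ry1 was not tested. P2ry2 and P2ry14 had log2 fold changes of 1.03 ± 0.69 and -0.48 ± 0.70.

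Markers of leukocytes were counted beside these genes. The 16 listed markers of macrophages and dendritic cells summed to 1729.9 to 4104 CPM in WT and 4412 to 7133 CPM in Emb knockdown, without overlap. Of the 13 tested members 10 were higher, and none of the list was at 0 in every WT library. The largest member had means of 1485 CPM (WT) and 3937 CPM (Emb knockdown), and without it the sums overlapped. The next largest in WT went the other way, from 1151 CPM (WT) to 277 CPM (Emb knockdown). The 13 markers of T, B and mast cells summed to 69.5 to 145 CPM in WT and 84 to 138 CPM in Emb knockdown, with overlap, and 1 of them was at 0 in all 8 libraries. The 21 markers of enteric neurons summed to 468 to 759 and 432 to 678 CPM, with 4 of 9 tested members higher and 5 lower. The part of these cells, and of the depth that also differed between genotypes, in the receptor values was not tested. In these bulk libraries fewer cells of a type and less RNA per cell cannot be told apart.

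Partners of these receptors outside the set were 51 genes of scaffolds, chaperones, auxiliary subunits and other receptor families. Of the 36 tested, 19 had positive and 17 negative estimates (median 0.06), and 0 passed the adjusted p by edgeR. A single gene stood at an unadjusted p under 0.05 (2.78%, against 13.3% of all genes tested). It was Gabbr1, a subunit of the metabotropic GABA receptor, with 5.15, 0, 4.56 and 5.62 CPM across WT libraries 1 to 4, against 22.7, 28.6, 30.8 and 21.9 CPM across Emb knockdown libraries 1 to 4. Every Emb knockdown library of Gabbr1 lay above every WT library (log2 fold change 2.74 ± 0.79, adjusted p by edgeR 0.295). By the DESeq2 Wald test its adjusted p was 0.00181. Gabbr1, with 4, 0, 6 and 4 counts across WT libraries 1 to 4, passed the filter through Emb knockdown. The tested GABA-A subunits had negative estimates, and the difference between them and Gabbr1 was not tested. Shank3, a scaffold of glutamate synapses, had 634 CPM in Emb knockdown replicate 1 and 10.3 to 36.6 CPM in the other Emb knockdown libraries, against 19.5 to 65.4 CPM in WT. The log2 fold change of Shank3 was 2.43 ± 1.23, and -0.50 without that library. Neto2, an auxiliary subunit of kainate receptors, had a log2 fold change of -1.56 ± 0.86 (-0.77 without WT replicate 1), and Gphn (gephyrin), which anchors GABA-A and glycine receptors, 1.10 ± 0.61. The edgeR adjusted p of these 3 genes was 0.413 to 0.453.

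Compared by class, the tested medians ran from -1.01 (GABA-A, 5 genes) through -0.74 (serotonin, 4), -0.66 (nicotinic, 6), -0.17 (muscarinic, 3), -0.12 (P2X, 6), 0.14 (ionotropic glutamate, 15) and 0.15 (metabotropic glutamate, 5) to 0.60 (P2Y, 4), beside 0.04 for all genes. Without Emb knockdown replicate 1 the filter kept 44 receptor genes in place of 48. The median of the P2Y genes fitted there was -0.13, the estimate of P2ry6. Ligand-gated channels had a median of -0.11 over 33 tested genes (13 higher, 20 lower) and G protein-coupled receptors -0.08 over 15 (7 higher, 8 lower). All of these medians are on the TMM scale. Scaled to the olfactory-type receptor genes, the median was 0.50 over the 48 and 0.64 over all genes tested, so the sign of a class median can depend on the scale. These differences between classes carry no test.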

How the data were processed

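RNA of 8 sorted libraries, 4 WT and 4 Emb knockdown, was measured. The authors deposited whole-number counts per gene, not normalized; cutadapt and mm10 are named in the submitters' processing notes. Aligner, counter and strand setting: not given in the sources used here. Coordinates and exonic lengths came from GENCODE M21 (GRCm38), with all 99 receptor genes matched.

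The test was edgeR's robust quasi-likelihood fit with group as the only term (edgeR 4.0.16, R 4.3.3), after filterByExpr (minimum count 10, minimum total 15) and TMM scaling, with Benjamini-Hochberg adjustment over all 11353 genes tested. A standard error is the absolute log2 fold change over the square root of F. CPM values use TMM-scaled library sizes. DESeq2 1.42.0, limma 3.58.1 (voom), other scalings, no filter, a replicate block and left-out libraries were alternatives. Thinning drew 698930 counts from each library. Some members and markers are not reported here by name. Lists were described by counts and medians, with no set test.

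Members, classes and lists were chosen with earlier results of these data known. The named genes are those with an unadjusted p under 0.05, the 2 members of each class with the highest mean CPM, and receptors known from enteric physiology; partners were named by smallest p. Other members named with a value (among them P2ry2, P2ry14 and further GABA-A and metabotropic glutamate genes) were chosen after their values were seen. The labels name 4 mice of each genotype but tie no library to a mouse, so the p-values reflect the spread among these libraries only, which may be technical. Reads were amplified, with no molecular identifiers named, and are not independent molecules.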

Additional observations from a re-analysis of the deposited data

Results flagged for a closer look

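Among the 36 named genes and the 9 class sums, 90 groups of 4 libraries were screened for a library far from the other 3 on the log2 scale, and 4 stood apart, where chance marks about 1 in 20 groups. P2ry10 in WT replicate 3 had 9.89 CPM, beside 0 in the other WT libraries. Chrnb1 in WT replicate 3 had 16.7 CPM, above 12.6 to 12.9 CPM in the other WT libraries. Htr4 in WT replicate 2 had 9.20 CPM, against 1.29 to 1.52 CPM in the other WT libraries. Htr5b in Emb knockdown replicate 1 had 103 CPM, against 1.25 to 2.16 CPM in the other Emb knockdown libraries.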

How the results depend on the processing

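The count of receptor genes past the adjusted p was 0 by edgeR in every scaling, with limma voom, with the replicate block and with each library left out; it was 5 by the DESeq2 Wald test and 3 with no filter. Genes with an unadjusted p under 0.05 and higher in Emb knockdown numbered 2, and 4 when scaled to the olfactory-type receptor genes, 1 by DESeq2, 1 by limma voom and 1 with the replicate block; left-out libraries gave 1 to 3. Those lower numbered 7, 3 with that scaling and 4 with the replicate block; left-out libraries gave 3 to 6. The median of all genes was 0.04, but -0.59 with library totals alone and 0.64 scaled to the olfactory-type receptor genes, and class medians moved with it: ionotropic glutamate -0.47 and 0.79, metabotropic glutamate -0.43 and 0.73, serotonin -1.28 and -0.20. The serotonin median was also -0.10 with no filter and -0.30 with limma voom. With single libraries left out, medians ran from -1.39 to -0.73 (GABA-A), -0.43 to 0.07 (P2X), -0.13 to 1.10 (P2Y), -0.05 to 0.33 (ionotropic glutamate), -0.11 to 0.61 (metabotropic glutamate), -0.38 to 0.14 (muscarinic acetylcholine), -1.88 to -0.40 (nicotinic acetylcholine), -0.85 to 0.81 (serotonin). Leaving out a WT library let more genes through the filter (67 to 75 receptor genes fitted, against 48). Leaving out an Emb knockdown library let fewer through (39 to 44). The medians with a library left out are therefore over differing sets of genes. The replicate numbers are not said to pair libraries. Deviations from the group means correlated at 0.011 to 0.034 across genes for equal numbers, and at -0.041 to 0.018 for unequal numbers. Whether libraries of equal number share a litter, day or batch was not tested. The replicate block left 5 receptor genes with an unadjusted p under 0.05, against 9. Causes of these changes were not tested. Few counts per gene limit precision throughout: 8 of 99 genes had 10 or more counts in every library. No estimate past the threshold turned direction.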
